A study of Homo sapiens with 12 samples.

Results

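Ribosomes are assembled in the nucleolus, and 46 genes for that assembly were followed in RNAseq of SKBR-3 cells. The genes were taken by symbol from a list of nucleolar ribosome biogenesis factors, and all 46 were among the 20531 genes of the files. The list was drawn up by function, with earlier results of these data known. They fall into 6 roles: RNA polymerase I (4 genes), box C/D small nucleolar ribonucleoproteins or snoRNPs (4), box H/ACA snoRNPs (3), small subunit assembly (13), large subunit assembly (16), and nucleolar scaffold and regulators (6).

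SKBR-3 is an established HER2+ breast cancer cell line, and lapatinib is a drug that blocks the kinase activity of HER2 and EGFR. Cells received a non-targeting (NT) siRNA pool or a pool of siRNAs against FOXA1, a pioneer transcription factor, for 48 h according to the labels, followed by 24 h with DMSO or with lapatinib at 300 nM. The 4 groups, named here NT DMSO, NT lapatinib, FOXA1 DMSO and FOXA1 lapatinib, held 3 libraries each. All 12 libraries were of polyA RNA from 1 cell line that had been transfected with an siRNA pool, no untransfected group was used here, and the labels do not say whether the replicates were separate cultures, so the tests measure the spread between these libraries, which may be technical.

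In the nucleolus, RNA polymerase I transcribes the long precursor of the rRNAs. Box C/D snoRNPs methylate that precursor and box H/ACA snoRNPs convert some of its uridines to pseudouridine, each guided by a small RNA. Assembly factors, helicases, GTPases and nucleases then fold and cut the precursor into the small and the large subunit, a process that consumes much of the energy of a growing cell and is known to be raised by growth factor signaling and by MYC.

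The libraries held between 25749578 and 32271850 estimated reads. FOXA1 itself was lower in every FOXA1 siRNA library (1160 to 2384 normalized counts) than in every NT library (8308 to 13177), with a log2 change of -2.63 in DMSO and -2.69 in lapatinib. ERBB2, which encodes HER2, was at 2718 to 6105 TPM (a level corrected for transcript length and library size) and keratins KRT8, KRT18 and KRT19 were at 2062 to 5329 TPM. ESR1 (estrogen receptor) and PGR (progesterone receptor) were at or below 0.98 TPM, and so was the epithelial cadherin CDH1, at 0.03 to 0.25 TPM. Of 10 fibroblast, leukocyte and endothelial markers, 7 were at or below 0.44 TPM in every library, and COL1A1 (2.74 to 5.58 TPM), CD68 (14.8 to 42.5 TPM) and CDH5 (3.23 to 11.8 TPM) were higher. In each group the library numbered 2 stood apart, with a chi-square per degree of freedom of 12.1 to 17.6 against the other replicates, compared with 3.62 to 5.68 between the libraries numbered 1 and 3. Results are therefore also given without the libraries numbered 2 where a count moved by over 1.5 times or a member changed sides.

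In NT DMSO, the members ranged from NPM1 (nucleophosmin, the abundant nucleolar histone and ribosome chaperone) at 1091 ± 20.2 TPM (SD, n = 3) to URB2, a large subunit factor, at 14.3 ± 0.301 TPM. NCL (nucleolin, an RNA-binding protein of the nucleolus) followed NPM1 at 838 ± 10.9 TPM, and DDX21 (an RNA helicase) was at 361 ± 29.8 TPM. FBL (fibrillarin, the methyltransferase of box C/D snoRNPs) was at 322 ± 12.8 TPM and NHP2, of the box H/ACA snoRNPs, at 311 ± 8.20 TPM. These last 3 were close in level: DDX21 and FBL, and FBL and NHP2, were nearer to each other than the sum of their SDs. The same held for 31 of the 45 neighboring pairs in the order of levels. Over the mean of the 4 groups, 12 members were at 102 TPM (NOP2) or more, 4 (URB1, RRP12, UTP15 and URB2) were between 11.4 and 17.7 TPM, and the median was 50.7 TPM. The lowest estimated read count of any member in any library was 219, for LYAR, so none was near the detection limit.

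The 46 genes lie on 18 chromosomes. In the GENCODE v44 annotation, 10 of them (21.7%) contain snoRNA genes, 29 in all, compared with 275 of 20046 protein-coding genes (1.37%). GNL3 holds 6, NOP56 holds 5, NOP58 holds 4, and NCL and WDR43 hold 3 each, so several genes for snoRNP proteins or nucleolar factors are also hosts of the guide RNAs. The snoRNAs themselves were not analysed here.

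Promoters were read from RefSeq (GRCh38.p14), from 250 bases before to 50 bases after each start, for 37 of the 46 genes in 47 windows. BOP1, DDX18, NOLC1, NOP58, POLR1E, RRP12, RRP1B, RRS1 and URB2 were not matched. The E-box CACGTG, which reads the same on both strands and is bound by MYC with MAX and by related factors, was present in 18 of the 47 windows (38.3%), in 17 genes. It was present in 7.26% of all 35116 windows, in 9.30% of the 15825 windows of genes tested after lapatinib, and in 24.2% of the 120 windows of other ribosome biogenesis genes. The median GC content was 64% in the members' windows, 58.7% in all windows and 64.3% in the windows of the genes tested. The forkhead motif GTAAACA, searched on both strands, was in 2.13% of the members' windows and 3.42% of all windows, and GTCAACA in 0 of 47 and 2.32%. The 8 stretches of 30 bases below are shown because they place the E-box, in capitals, in 5 of the genes that fell most after lapatinib and have a matched window with the motif (LYAR, MYBBP1A, EBNA1BP2, RRP9 and MRTO4), in the abundant genes DDX21 and FBL, and in GNL3, which did not fall.
LYAR: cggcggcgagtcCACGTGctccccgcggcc
MYBBP1A: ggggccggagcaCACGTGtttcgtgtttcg
EBNA1BP2: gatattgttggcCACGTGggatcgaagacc
RRP9: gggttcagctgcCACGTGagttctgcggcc
MRTO4: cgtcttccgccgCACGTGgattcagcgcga
DDX21: ggccgggtgtccCACGTGgtccccggcgac
FBL: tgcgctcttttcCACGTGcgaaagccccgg
GNL3: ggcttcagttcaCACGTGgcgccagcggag
They are read 5′ to 3′ on the strand of the gene, and lie at chr4:4290068-4290097 (minus strand, LYAR), chr17:4555340-4555369 (minus, MYBBP1A), chr1:43172790-43172819 (minus, EBNA1BP2), chr3:51941892-51941921 (minus, RRP9), chr1:19251807-19251836 (plus, MRTO4), chr10:68956604-68956633 (plus, DDX21), chr19:39846356-39846385 (minus, FBL) and chr3:52686026-52686055 (plus, GNL3). Over the 17 genes there were 19 distinct sites, of which 13 lay after the start, 6 before it, and 16 within 50 bases of it. NOP16 and NOP56, which also fell by over 1 on the log2 scale after lapatinib with NT siRNA, have matched windows without the E-box. A match is a description of the letters in the window and not evidence of binding.

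Lapatinib lowered nearly all of these genes in cells with NT siRNA. By the quasi-likelihood test of edgeR, at a p under 0.05 after Benjamini-Hochberg adjustment over all 13713 genes tested, 43 of the 46 members were lower, 1 was higher (NOB1) and 2 did not pass (GNL3 and NPM1). Among all genes tested, 29.2% were lower and 30.5% were higher. The median log2 fold change was -0.70 over the members and 0.03 over all genes. With an additional limit of at least 1 on the log2 scale, 9 members were lower (LYAR, BOP1, NOLC1, NOP16, MYBBP1A, EBNA1BP2, NOP56, RRP9 and MRTO4) and 0 higher (also 0 at an unadjusted p under 0.05 and by DESeq2), where 7.13% of all genes were lower and 6.64% higher by that limit. For 44 of the 46 members the 3 lapatinib libraries did not overlap the 3 DMSO libraries, which was so for 66.3% of all genes tested. The members together took 0.694% to 0.709% of the reads in NT DMSO and 0.427% to 0.458% in NT lapatinib. All values are relative to the rest of the library, so a change in the amount of RNA per cell cannot be told apart from a change in the share of these mRNAs, nor fewer cells of a kind from less RNA in each.

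**Figure D1:**
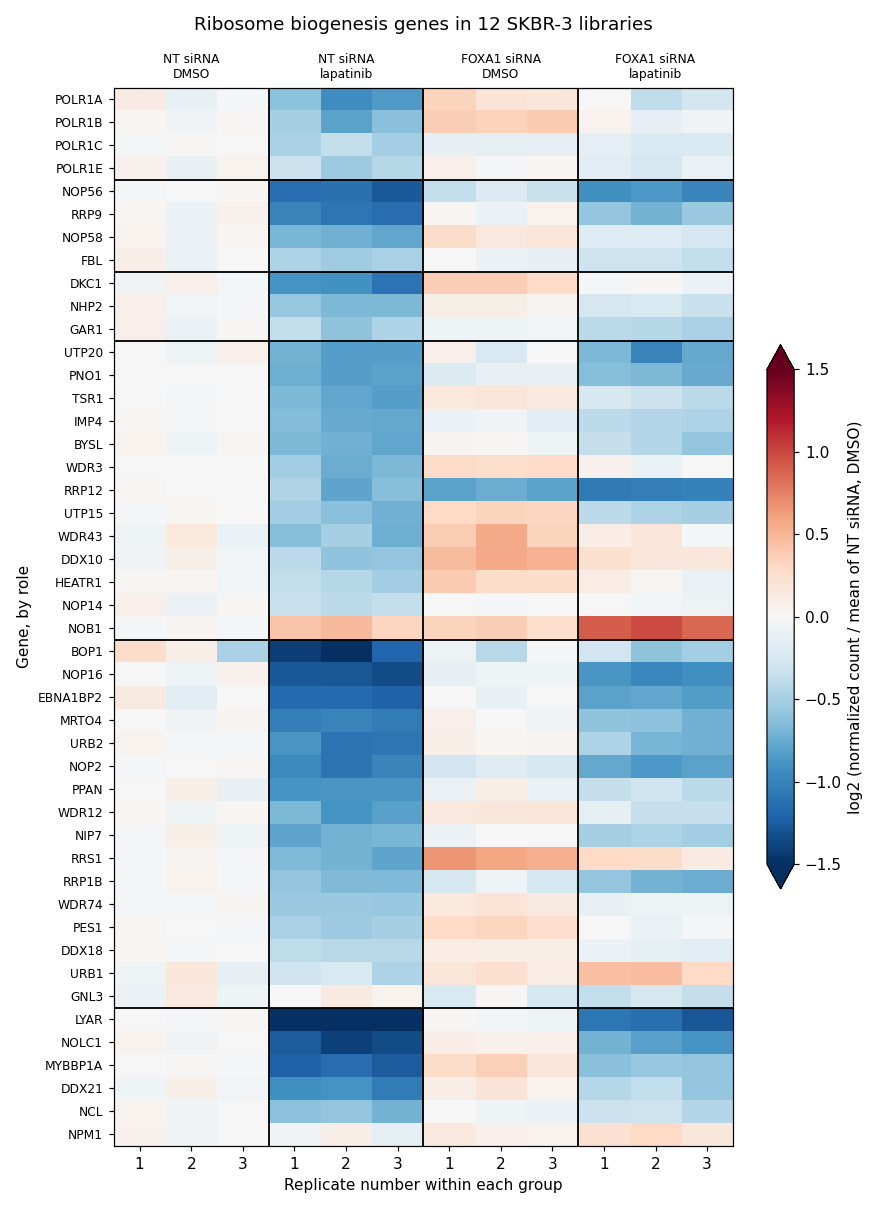
Each cell is the log2 ratio of a member's normalized count in 1 library to the mean of the 3 NT siRNA, DMSO libraries, with 46 genes as rows in their 6 roles and 12 libraries as columns in 4 groups. The NT lapatinib columns are blue for all but a few genes, the FOXA1 lapatinib columns are paler for most, and LYAR and BOP1 pass the end of the color scale.

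The largest fall was that of LYAR, a zinc finger protein of the nucleolus that promotes rRNA processing. It measured 873, 864 and 880 normalized counts (reads scaled to a common library size) in NT DMSO and 260, 279 and 240 in NT lapatinib. This was a fall by 1.72 on the log2 scale (SE 0.08, adjusted p = 2.69e-06), with the 2 groups far apart. NOLC1, a chaperone of snoRNPs in the nucleolus and Cajal bodies, went from 8409, 7849 and 8078 to 3412, 3084 and 3194 normalized counts (log2 -1.31, SE 0.06, adjusted p = 2.1e-06). In the same role group, MYBBP1A (log2 -1.18), DDX21 (-0.93) and NCL (-0.62) were also lower. NPM1 stood outside this pattern, at 22329, 20560 and 21208 normalized counts in NT DMSO and 20648, 22814 and 19303 in NT lapatinib. Its groups overlapped and its log2 change was -0.01 (SE 0.06, adjusted p = 0.915), while without the libraries numbered 2 it was -0.12 with an adjusted p of 0.0442.

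All 4 genes of RNA polymerase I were lower (29.2% of all genes tested were), with a median log2 fold change of -0.52. POLR1A, which encodes the largest subunit, was at 4392, 3730 and 3988 normalized counts in NT DMSO and at 2645, 2118 and 2243 in NT lapatinib (log2 -0.77, SE 0.09, adjusted p = 0.000182). POLR1B, the second largest subunit, went from 3636, 3462 and 3631 to 2524, 2057 and 2316 (log2 -0.62, SE 0.08, adjusted p = 0.000209). The smallest fall in this role was that of POLR1E, a subunit of the peripheral heterodimer of the enzyme, from 1068, 947 and 1060 to 819, 705 and 764 (log2 -0.41, SE 0.08, adjusted p = 0.0029). POLR1C, which RNA polymerases I and III share, was close to it at log2 -0.42. In none of the 4 did the 2 groups overlap, which was so for 66.3% of all genes tested.

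The box C/D snoRNP genes fell by a median of 0.88 on the log2 scale, and the 4 members of the particle did not fall equally. NOP56, a core scaffold protein, was at 8521, 8578 and 8794 normalized counts in NT DMSO and at 3917, 3967 and 3590 in NT lapatinib (log2 -1.15, SE 0.05, adjusted p = 2.6e-06). RRP9, the protein specific to the U3 snoRNP, had a log2 change of -1.06, and NOP58, the partner of NOP56, one of -0.70. FBL fell least, from 5448, 4748 and 5117 to 3693, 3534 and 3654 (log2 -0.47, SE 0.06, adjusted p = 0.000188). Of the box H/ACA genes, DKC1, which encodes the pseudouridine synthase dyskerin, fell most, from 3965, 4354 and 4047 to 2226, 2195 and 1909 normalized counts (log2 -0.95, SE 0.07, adjusted p = 1.9e-05). NHP2 went from 4162, 3826 and 3860 to 2662, 2470 and 2474 (log2 -0.62, SE 0.06, adjusted p = 4.28e-05). GAR1, also a core protein of this particle, went from 1349, 1187 and 1293 to 987, 842 and 930 (log2 -0.45, SE 0.08, adjusted p = 0.00151). The NT DMSO and NT lapatinib libraries of all 7 snoRNP genes were separate, as they were for 66.3% of all genes tested.

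Of the 13 small subunit genes, 12 were lower and 1 was higher (29.2% and 30.5% of all genes tested), with a median log2 change of -0.60. UTP20, a large scaffold of the early small subunit particle, fell most, from 5207, 4943 and 5525 normalized counts to 3184, 2943 and 2947 (log2 -0.77, SE 0.06, adjusted p = 1.7e-05). IMP4, which binds the U3 snoRNA in that particle, went from 3100, 3014 and 3043 to 1939, 1802 and 1789 (log2 -0.71, SE 0.05, adjusted p = 1.71e-05). WDR43, another early factor, went from 4186, 4952 and 4150 to 2846, 3130 and 2675 (log2 -0.60, SE 0.09, adjusted p = 0.000556). The other early factors that fell were WDR3 (log2 -0.62), UTP15 (-0.60), DDX10 (-0.51), HEATR1 (-0.42) and NOP14 (-0.34), and the later ones were PNO1 (-0.77), TSR1 (-0.74), BYSL (-0.70) and RRP12 (-0.60). NOB1, the nuclease that makes the last cut of the small subunit rRNA, moved the other way: it was at 1865, 1935 and 1858 normalized counts in NT DMSO and at 2540, 2650 and 2354 in NT lapatinib. Every lapatinib library was above every DMSO library (log2 0.44, SE 0.06, adjusted p = 0.000373). By annotation 20.4% of the exonic bases of NOB1 lie under NQO1-DT, a non-coding gene on the opposite strand and the sources used here do not state whether reads were counted by strand.

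Large subunit factors were lower in 15 of 16 cases (29.2% of all genes tested were), with a median log2 change of -0.74. BOP1, a member of the PES1-BOP1-WDR12 complex, had the largest change but also the widest spread, at 2796, 2468 and 1638 normalized counts in NT DMSO and 866, 759 and 1010 in NT lapatinib (log2 -1.37, SE 0.19, adjusted p = 0.000397). Its partners fell less, WDR12 by 0.77 and PES1 by 0.49 on the log2 scale. NOP16 went from 1727, 1642 and 1813 to 717, 712 and 683 (log2 -1.27, SE 0.06, adjusted p = 3e-06). EBNA1BP2, which works in early large subunit assembly, went from 5731, 4686 and 5232 to 2318, 2331 and 2258 (log2 -1.16, SE 0.07, adjusted p = 6.72e-06). NOP2, an rRNA methyltransferase, went from 3995, 4046 and 4108 to 2088, 1900 and 2043 (log2 -0.99, SE 0.06, adjusted p = 4.7e-06), and these 3 genes had groups far apart. The log2 changes of the other members were -1.01 for MRTO4, -0.997 for URB2, -0.85 for PPAN, -0.70 for NIP7, -0.70 for RRS1, -0.62 for RRP1B, -0.54 for WDR74, -0.38 for DDX18 and -0.31 for URB1. GNL3 (nucleostemin, a nucleolar GTPase) was at 5341, 6259 and 5404 normalized counts in NT DMSO and 5701, 6203 and 5900 in NT lapatinib. Its groups overlapped (log2 0.09, SE 0.07, adjusted p = 0.337), and it was higher without the libraries numbered 2, at log2 0.12 with an adjusted p of 0.0267.

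With FOXA1 siRNA, lapatinib lowered most of the same list by less. This response was measured on 6 other libraries, so it shares no sample with the response in NT cells. Of the 46 members, 39 were lower (29.1% of all 13745 genes tested were), 3 were higher (NOB1, URB1 and NPM1, with 29.0% of all genes higher), and POLR1C, NOP14, BOP1 and GNL3 did not pass. The median log2 change was -0.37, and 0.01 over all genes. By the limit of at least 1 on the log2 scale, LYAR was lower and 0 members were higher in edgeR, at an unadjusted p or by DESeq2, where 5.12% of all genes were lower and 4.93% higher. For 42 of 46 members the groups did not overlap, and for 65.3% of all genes. When the fit had the replicate number as a block, BOP1 (log2 -0.28, adjusted p = 0.00288) and GNL3 (-0.16, adjusted p = 0.00293) were also lower. BOP1 passed as well by DESeq2, without the libraries numbered 2, without FOXA1 DMSO replicate 2 and without FOXA1 lapatinib replicate 1, with log2 changes from -0.40 to -0.29. Without the libraries numbered 2, GNL3 was lower (log2 -0.12, adjusted p = 0.0273) and NPM1 no longer passed (0.10, adjusted p = 0.0815).

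**Figure D2:**
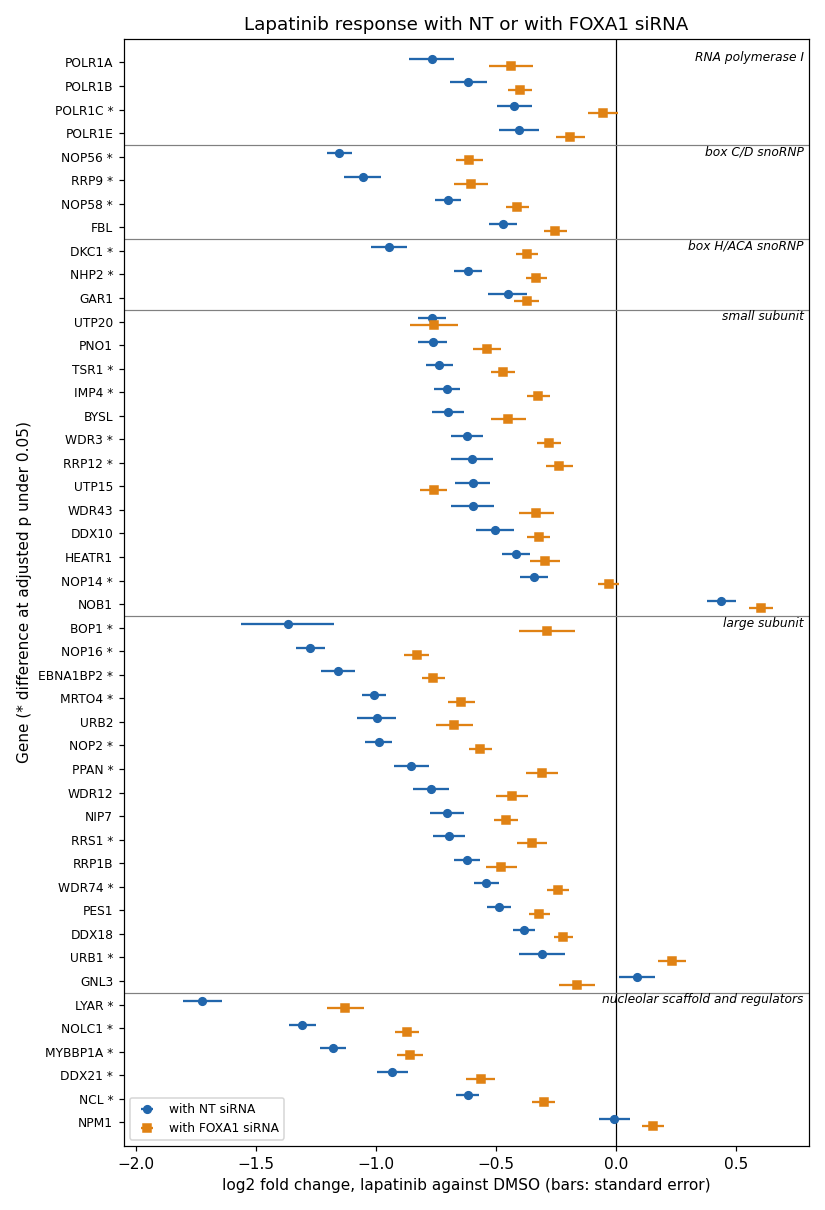
Log2 fold change of lapatinib against DMSO for each of the 46 members, for NT siRNA as blue circles and FOXA1 siRNA as orange squares, with standard errors of fits on 6 libraries each and genes ordered within their role. The orange square lies to the right of the blue circle for 44 genes. Of the 13446 genes tested in both fits, 6538 had the higher value with FOXA1 siRNA. An asterisk marks the 25 genes whose difference passed an adjusted p of 0.05 in the interaction test.

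The difference between both responses was tested as an interaction of siRNA and drug in a fit of all 12 libraries, where a positive value means a smaller fall, or a larger rise, with FOXA1 siRNA. At an adjusted p under 0.05, 25 of the 46 members had a positive interaction in edgeR and 0 a negative one, with a median of 0.33 on the log2 scale. Over all 14012 genes tested, 3.99% were positive and 3.20% negative, and the median was 0.01. At an unadjusted p under 0.05 the members' counts were 39 and 0, with 12.4% and 9.85% of all genes, and DESeq2 called 28 and 0, with 5.86% and 4.50%. A block for the replicate number gave counts of 38 positive and 1 negative (GNL3, log2 -0.24, adjusted p = 0.00722), and 11.1% and 9.22% of all genes. The 25 genes called without the block were all among the 38. The block added the RNA polymerase I genes POLR1A (0.34, adjusted p = 0.00166), POLR1B (0.23, 0.0244) and POLR1E (0.23, 0.0338), and FBL of the box C/D snoRNPs (0.23, 0.0123). Among small subunit genes it added WDR43 (0.28, 0.00181), NOB1 (0.18, 0.0202), PNO1 (0.24, 0.0285) and BYSL (0.26, 0.0252). Among large subunit genes it added WDR12 (0.35, 0.00726), URB2 (0.34, 0.00765), DDX18 (0.18, 0.00954), NIP7 (0.26, 0.0156) and PES1 (0.18, 0.0221). At an adjusted p under 0.01 without the block, 10 members remained, with 1.11% of all genes. The count fell to 16 without NT lapatinib replicate 3 and to 16 without FOXA1 lapatinib replicate 1. These were the lowest counts of members among the 12 fits that leave out 1 library. Positive calls over all genes fell as well, from 559 of 14012 genes to 313 of 13991 and 305 of 13993, respectively. In all 12 such leave-one-out fits, 15 of the 25 genes passed, a count that was not made over all genes. Without the libraries numbered 2, 28 members were positive and 1 negative (GNL3, log2 -0.24, adjusted p = 0.00968), with 10.3% and 7.88% of all genes. That fit added FBL, NPM1, PES1, WDR12 and WDR43 to the positive genes, with adjusted p values from 0.0266 to 0.0459, and RRS1 (0.31, adjusted p = 0.0593) and TSR1 (0.28, adjusted p = 0.0519) no longer passed.

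All 25 genes with a positive interaction were among those that lapatinib lowered in NT cells. Of the 43 members lower with NT siRNA, 42 (97.7%) fell less with FOXA1 siRNA or, as URB1 did, rose, and 25 (58.1%) had a positive interaction. Of all 4007 genes lower with NT siRNA, 76.9% fell less or rose and 11.3% had a positive interaction. These shares use the NT libraries on both sides and are a description with no test. The exception among the 43 was UTP15, an early small subunit factor, whose log2 change was -0.60 in NT cells and -0.76 under FOXA1 siRNA (interaction -0.15, SE 0.08, adjusted p = 0.328).

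By role, the interaction without the block was positive in 1 of 4 RNA polymerase I genes (POLR1C), 3 of 4 box C/D genes (NOP56, NOP58 and RRP9), 2 of 3 box H/ACA genes (DKC1 and NHP2), 5 of 13 small subunit genes (WDR3, IMP4, NOP14, TSR1 and RRP12), 9 of 16 large subunit genes (BOP1, NOP2, NOP16, RRS1, PPAN, MRTO4, EBNA1BP2, URB1 and WDR74) and 5 of 6 scaffold and regulator genes (all but NPM1). Over all genes tested, 3.99% were positive, and the roles were not compared by a test. Among the members, NOP56 had the smallest adjusted p. It measured 6690, 7485 and 6823 normalized counts in FOXA1 DMSO and 4574, 4751 and 4337 in FOXA1 lapatinib, a log2 change of -0.61 in place of -1.15 (interaction 0.55, SE 0.08, adjusted p = 0.00212). DKC1 was at 5337, 5307 and 5083 in FOXA1 DMSO and 4056, 4156 and 3877 in FOXA1 lapatinib (interaction 0.59, SE 0.09, adjusted p = 0.00245). In 2 of the 3 FOXA1 lapatinib libraries DKC1 was within the range of its NT DMSO libraries, while the NT lapatinib libraries were at 2226 or less.

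LYAR remained the member with the largest fall, from 881, 846 and 837 normalized counts in FOXA1 DMSO to 411, 398 and 357 in FOXA1 lapatinib, and its interaction was 0.61 (SE 0.10, adjusted p = 0.0049). NOLC1 measured 8665, 8492 and 8583 in FOXA1 DMSO and 4975, 4605 and 4410 in FOXA1 lapatinib (interaction 0.45, SE 0.07, adjusted p = 0.0044). For NOP2 the values were 3328, 3583 and 3408 in FOXA1 DMSO and 2374, 2235 and 2325 in FOXA1 lapatinib (interaction 0.44, SE 0.07, adjusted p = 0.00335). In each of the 3 genes the FOXA1 lapatinib libraries lay between the NT lapatinib and the DMSO libraries. NOP16 (interaction 0.46, SE 0.08, adjusted p = 0.00468) and IMP4 (0.39, SE 0.07, adjusted p = 0.00486) had the same order of groups.

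BOP1 had the largest interaction in size and the largest error. It was at 2175, 1718 and 2262 normalized counts in FOXA1 DMSO and 1886, 1517 and 1612 in FOXA1 lapatinib, and those groups overlapped, while its NT lapatinib libraries were all at or below 1010. The interaction was 1.09 (SE 0.25, adjusted p = 0.0224), and it passed in 9 of the 12 fits without 1 library. URB1, a large subunit factor, changed direction: its log2 change was -0.31 (SE 0.10, adjusted p = 0.0225) with NT siRNA and 0.23 (SE 0.06, adjusted p = 0.0094) with FOXA1 siRNA, with an interaction of 0.55 (SE 0.12, adjusted p = 0.0159). It measured 2801, 3305 and 2691 in NT DMSO, 2386, 2497 and 2123 in NT lapatinib, 3333, 3484 and 3169 in FOXA1 DMSO and 4001, 4048 and 3607 in FOXA1 lapatinib, and lapatinib did not overlap DMSO under either siRNA. URB1 was singled out after its values were seen.

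For other members the interaction did not pass without the block, which does not show that their responses were equal. UTP20 fell by 0.77 in NT cells and by 0.76 under FOXA1 siRNA on the log2 scale, and its interaction was 0.02 (SE 0.13, adjusted p = 0.951), and it measured 5515, 4472 and 5256 normalized counts in FOXA1 DMSO and 3272, 2618 and 3074 in FOXA1 lapatinib. GAR1 had an interaction of 0.09 (SE 0.09, adjusted p = 0.634), unlike its partners DKC1 and NHP2 in which the test passed, although the difference between the genes was not tested. Neither gene passed with the block. NOB1, at 2381, 2439 and 2270 in FOXA1 DMSO and 3531, 3718 and 3439 in FOXA1 lapatinib, was again higher with the drug in every library (log2 0.60, SE 0.05, adjusted p = 2.91e-05). Its interaction was 0.18 (SE 0.07, adjusted p = 0.185) and passed with the block, where the adjusted p was 0.0202.

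**Figure D3:**
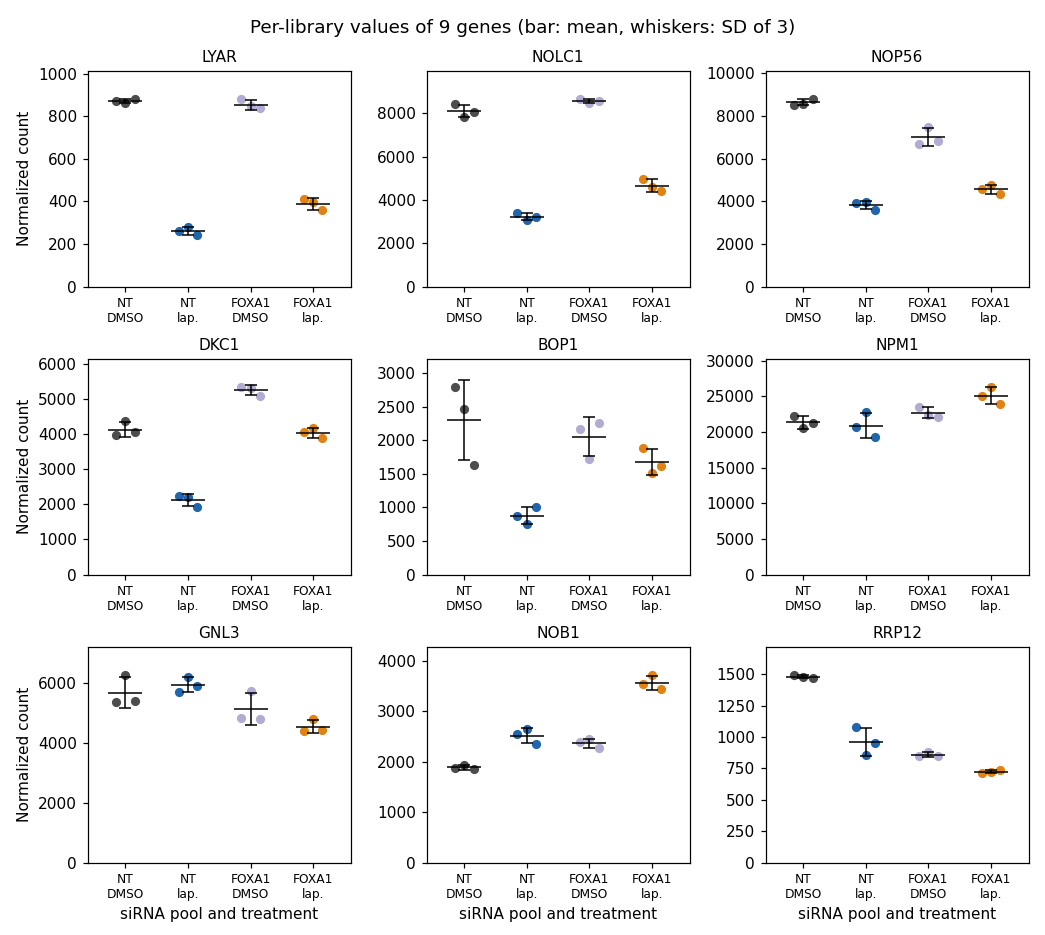
Normalized counts (linear axis from 0) of 9 members in the 12 libraries, with points for libraries, a bar for the mean and whiskers for the SD of 3. LYAR, NOLC1 and NOP56 show NT lapatinib lowest and FOXA1 lapatinib between it and the DMSO groups, DKC1 shows FOXA1 lapatinib level with NT DMSO, NOB1 rises with the drug under both siRNAs, and RRP12 is lower with FOXA1 siRNA under both treatments.

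In DMSO, FOXA1 siRNA alone moved fewer members and in both directions. At an adjusted p under 0.05, 17 of 46 were higher and 4 were lower (RRP12, NOP56, NOP2 and RRP1B), compared with 21.9% and 21.3% of all 13694 genes tested. The members' median was 0.05 on the log2 scale, and 0 members passed a log2 change of at least 1 in either direction, also at an unadjusted p under 0.05 and by DESeq2 (4.06% of all genes were higher and 2.77% lower by it). The groups did not overlap for 25 of 46 members, a share near the 53.7% of all genes. Without the libraries numbered 2 the counts were 18 higher and 7 lower, with 27.4% and 28.0% of all genes. In that fit DDX21 and URB1 joined the higher genes, GNL3, IMP4 and PNO1 joined the lower ones, and DDX18 no longer passed (log2 0.10, adjusted p = 0.0543). With the replicate block, 22 were higher and 6 lower, with 30.3% and 30.2% of all genes. It added DDX21 (log2 0.13, adjusted p = 0.00139), URB1 (0.20, 0.00218), NPM1 (0.10, 0.00544), NOLC1 (0.09, 0.0137) and NHP2 (0.09, 0.0426) to the higher genes, and GNL3 (-0.14, 0.00189) and PNO1 (-0.13, 0.0248) to the lower ones.

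The 17 genes that rose came from every role (POLR1A, POLR1B, NOP58, DKC1, WDR3, WDR43, HEATR1, DDX10, NOB1, TSR1, UTP15, PES1, WDR12, RRS1, WDR74, DDX18 and MYBBP1A), with log2 changes from 0.11 for DDX18 upward. RRS1, an early large subunit factor, rose most with FOXA1 siRNA in DMSO, from 1229, 1280 and 1211 normalized counts to 1965, 1862 and 1805 (log2 0.61, SE 0.06, adjusted p = 0.000114). DDX10, a helicase of the small subunit particle, went from 1721, 1894 and 1731 to 2479, 2645 and 2565 (log2 0.54, SE 0.06, adjusted p = 0.000301). WDR43 was at 5788, 6569 and 5582 in FOXA1 DMSO, above its NT DMSO libraries (log2 0.45, SE 0.09, adjusted p = 0.00521). The largest fall was that of RRP12, a factor in the export and maturation of both subunits. It was at 1496, 1479 and 1471 in NT DMSO and 847, 885 and 847 in FOXA1 DMSO (log2 -0.77, SE 0.05, adjusted p = 2.93e-05), and no library of one group came near the other. NOP56 (log2 -0.29, SE 0.05, adjusted p = 0.00279) and NOP2 (-0.22, SE 0.05, adjusted p = 0.00527) fell less. NOP56 was thus lower with FOXA1 siRNA in DMSO and, at log2 0.24 (SE 0.06, adjusted p = 0.00954), higher with it in lapatinib.

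Under lapatinib, the same siRNA raised most members. Here 39 of 46 were higher and 2 were lower (RRP12 and GNL3), compared with 22.7% and 22.2% of all 13727 genes, and GAR1, UTP20, UTP15, PNO1 and RRP1B did not pass. The median was 0.38, and 0 members passed a log2 change of at least 1 in either direction by edgeR, at an unadjusted p or by DESeq2 (4.51% of all genes higher, 3.90% lower). For 42 of 46 members the groups did not overlap, and for 55.5% of all genes. UTP15 was higher with the replicate block (log2 0.16, adjusted p = 0.024) and with all 12 samples in one model (0.17, adjusted p = 0.0337), and without the libraries numbered 2 BYSL (0.24, adjusted p = 0.061) and FBL (0.12, adjusted p = 0.0538) did not pass. This comparison uses the NT lapatinib libraries that also enter the response in NT cells, so members low in those libraries enter both results. RRS1 was at 782, 759 and 718 normalized counts in NT lapatinib and at 1526, 1506 and 1353 in FOXA1 lapatinib (log2 0.95, SE 0.07, adjusted p = 3.09e-05). DKC1 (log2 0.93, SE 0.07, adjusted p = 3.05e-05) and BOP1 (0.92, SE 0.12, adjusted p = 0.00047) came next. RRP12, at 1081, 854 and 955 in NT lapatinib and 713, 726 and 736 in FOXA1 lapatinib, was lower (log2 -0.42, SE 0.09, adjusted p = 0.00675). GNL3 was at 4393, 4797 and 4411 in FOXA1 lapatinib, below every NT lapatinib library (log2 -0.40, SE 0.05, adjusted p = 0.000601).

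**Figure D4:**
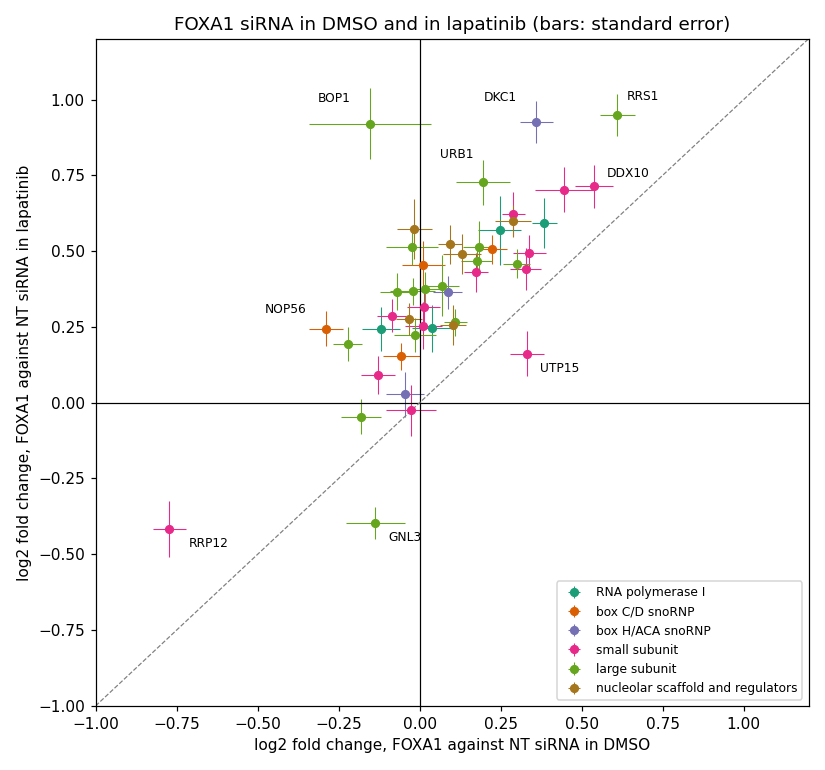
Log2 fold change of FOXA1 against NT siRNA in DMSO (horizontal) and in lapatinib (vertical) for the 46 members, colored by role, with standard errors and a dashed line of equal change; the 2 axes share no library. Most points lie above the line, with BOP1 farthest from it, RRP12 low on both axes, and UTP15 and GNL3 below it.

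The mean of NT lapatinib was the lowest of the 4 group means for 41 members, that of FOXA1 lapatinib for 4, and that of NT DMSO for 1 (NOB1). The highest mean was in FOXA1 DMSO for 22 members and in NT DMSO for 20. These counts were not made over all genes, so they describe the members only and cannot be set against the other genes. Summed over the 46 genes, the normalized counts were 215971, 211601 and 210487 in NT DMSO, 140067, 139361 and 131441 in NT lapatinib, 225449, 224535 and 217544 in FOXA1 DMSO, and 180216, 178743 and 168142 in FOXA1 lapatinib. The order of the 4 groups in this sum held for every library.

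Other genes of the pathway had smaller medians of the same sign. Of 120 further ribosome biogenesis genes, chosen by function and all tested, lapatinib with NT siRNA lowered 91 and raised 6 (median log2 -0.41). Of all genes tested there, 29.2% were lower and 30.5% higher. Lapatinib with FOXA1 siRNA lowered 81 of the 120 and raised 8 (-0.29), where 29.1% of all genes were lower and 29.0% higher. The interaction was positive in 22 (3.99% of all genes) and negative in 1 (3.20% of all genes), which was MPHOSPH6, an exosome cofactor. The median interaction of the 120 was 0.15. Among 44 further small subunit factors, 37 passed the test after lapatinib with NT siRNA, each of them lower. Of 45 further large subunit factors 35 were lower and 3 higher, of 17 further RNA polymerase I subunits and factors 11 were lower and 2 higher, and of 14 genes of the RNA exosome, which trims the precursor, 8 were lower and 1 higher. FOXA1 siRNA in DMSO raised 29 (24.2%) and lowered 19 (15.8%) of the 120, near the 21.9% and 21.3% of all genes, and in lapatinib it raised 58 (48.3%) and lowered 11 (9.17%), where 22.7% and 22.2% of all genes were called.

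MYC, which is no member of the list, is given beside it as a known regulator of this pathway. It was at 6073, 6276 and 6137 normalized counts in NT DMSO, 4216, 4787 and 3913 in NT lapatinib, 10143, 10331 and 10878 in FOXA1 DMSO and 10419, 10652 and 10314 in FOXA1 lapatinib. MYC was lower after lapatinib with NT siRNA (log2 -0.50, SE 0.07, adjusted p = 0.0005) and did not pass with FOXA1 siRNA (0.01, SE 0.04, adjusted p = 0.856), where 39 members fell, and its interaction was 0.52 (SE 0.09, adjusted p = 0.00457). FOXA1 siRNA raised it in DMSO (log2 0.78, SE 0.04, adjusted p = 1.42e-05), where the members' median was 0.05, and in lapatinib (1.27, SE 0.07, adjusted p = 9.94e-06). Its part in the members' values was not tested. Of the 17 members with the E-box in a promoter window, 16 were lower after lapatinib with NT siRNA and 9 had a positive interaction. Of the 20 matched members without it, the counts were 18 and 11. Over all genes tested, 29.2% were lower and 3.99% had a positive interaction. The calls over all genes were not split by the E-box, and its part in them was not tested.

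Some members share sequence with other genes. By the annotation, 20 have exonic bases under a gene on the opposite strand, and for 11 this is over 10% of the exonic bases, from 28% for NHP2 and 26.9% for TSR1 to 12.2% for WDR74. PPAN shares 1422 of its 2888 exonic bases with genes on its own strand, the readthrough gene PPAN-P2RY11 among them, and NOP2 shares 2550 of 4687. Reads of such genes cannot be assigned with certainty, and their values carry that limit.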

How the data were processed

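RNAseq libraries from 12 samples of SKBR-3 cells were analyzed, 3 in each of 4 groups that follow the labels of siRNA and drug. For every library the authors deposited the expected count of a gene, an estimated number of reads that need not be whole (between 87.8% and 88.5% of values were whole), for 20531 genes with symbol and Entrez ID. The authors also deposited TPM, a level corrected for transcript length and library size, which was used for levels between genes only. The methods of the study name STAR 2.4.2a, the hg38 genome and Salmon 0.60, while the submitters' processing notes and the columns name RSEM, and the transcript models have UCSC identifiers. The labels name a KAPA Stranded kit in the protocol and a TruSeq v2 kit elsewhere, and give 48 h of siRNA before drug, where the methods give 24 h. The other deposited columns (FPKM and a normalized signal) were not used.

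Expected counts were rounded to whole numbers. A gene entered a fit when 1 or more of its libraries had 10 or more counts, and the tests used edgeR 4.0.16 in R 4.3.3 (TMM, glmQLFit and glmQLFTest), with Benjamini-Hochberg adjustment over all genes tested and a threshold of 0.05. The 4 pairwise comparisons were fitted on the 6 libraries of their groups and the interaction on all 12. Normalized counts in the text were scaled by TMM factors over all 12 libraries. Totals were between 25749578 and 32271850 counts per library. Intervals between replicates cover these libraries only.

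The main fits had no term for the replicate number and so did not pair the samples. A fit with the number as a block was run as an alternative. Over 12170 genes, the deviations from group means of same-numbered libraries correlated with a mean r of 0.39 (0.242 to 0.624 over 18 pairs). For different numbers the mean r was -0.184. Centering each group on its mean of 3 libraries ties this value to the first, so it is not separate support for a pairing. The labels do not say what a number stands for. Values from a fit with the number as a block are given where they changed a call or moved a count by over 1.5 times.

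The members and the lists of other genes were chosen with earlier results of these data known. All 46 members were accounted for. Values per library, for some genes in only part of the 4 groups, were given for members picked by rule. These were the member with the highest TPM and those with the lowest and highest response to lapatinib in each role. The 6 with the smallest adjusted p of the interaction and up to 3 per direction with the largest changes under FOXA1 siRNA were added. Positions, overlaps and snoRNA hosts came from RefSeq (GRCh38.p14) and GENCODE v44. Alternatives tried were normalization by RLE or by upper quartile, DESeq2 1.42.0, no filter, a filter of 10 counts in every sample, the block, all 12 samples in one model, a log2 fold minimum of 1, an adjusted p under 0.01 for the interaction, leaving out each library and, added after seeing the data, leaving out the libraries numbered 2. The fits were also run on simulated counts. Those counts had the same dispersion for every gene and no effect of the replicate number, so that run does not cover the spread seen here.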

Additional observations from a re-analysis of the deposited data

Results flagged for a closer look

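For 25 genes the response to lapatinib differed between cells with NT siRNA and cells with FOXA1 siRNA by the interaction test of edgeR at an adjusted p under 0.05. The difference is the log2 change with FOXA1 siRNA minus that with NT siRNA. In the nucleolar scaffold and regulator group it was 0.61 for LYAR, 0.449 for NOLC1, 0.38 for DDX21, 0.333 for MYBBP1A and 0.331 for NCL. Among snoRNP and RNA polymerase I genes it was 0.587 for DKC1, 0.554 for NOP56, 0.463 for RRP9, 0.384 for POLR1C, 0.304 for NOP58 and 0.299 for NHP2. For large subunit genes the values were 1.09 for BOP1, 0.556 for PPAN, 0.551 for URB1, 0.456 for NOP16, 0.437 for NOP2, 0.409 for EBNA1BP2, 0.377 for MRTO4, 0.359 for RRS1 and 0.313 for WDR74. For small subunit genes they were 0.394 for IMP4, 0.376 for RRP12, 0.355 for WDR3, 0.323 for NOP14 and 0.278 for TSR1. RRP12 passed in 1 of the 12 fits that leave out a library and TSR1 in 3. Outlying libraries were not looked for gene by gene, since each group held 3, while by counts over all genes the library numbered 2 stood apart in every group. Without those libraries RRS1 and TSR1 no longer passed.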

How the results depend on the processing

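Of the values of single members past the threshold, none changed direction under any alternative run. A log2 fold minimum of 1 left 9 members lower and 0 higher after lapatinib with NT siRNA, 1 and 0 with FOXA1 siRNA, and 0 and 0 for FOXA1 siRNA in DMSO and in lapatinib. With the replicate block, the interaction was positive in 38 members and negative in 1, and no other count of members moved by over 1.5 times. An adjusted p under 0.01 left 10 positive interactions. Upper-quartile normalization gave a median of 0.3996 for FOXA1 siRNA in lapatinib. Without the libraries numbered 2, 2 members were higher after lapatinib with NT siRNA (GNL3 joined NOB1), 7 were lower with FOXA1 siRNA in DMSO and 1 had a negative interaction. Leaving out 1 library at a time gave 1 to 2 members higher after lapatinib with NT siRNA, 16 to 26 positive interactions, and medians of 0.034 to 0.07889 for FOXA1 siRNA in DMSO, 0.3529 to 0.4358 for FOXA1 siRNA in lapatinib and 0.2918 to 0.337 for the interaction. The 16 came without NT lapatinib replicate 3 or FOXA1 lapatinib replicate 1, and the 2 higher members without NT DMSO replicate 2. Where the members had 16, all genes had 313 and 305 positive interactions, respectively, in place of 559. The other counts and medians stayed within 1.5 times or within the spread between replicate numbers. The cause of these shifts was not tested. Depth did not limit the members, each with at least 219 estimated reads in every library.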
